A study of Mus musculus with 28 samples.

Results

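Granulosa cells that expressed Amh and were outside division were examined in 4 single-cell RNA libraries of mouse ovary, 1 library for each combination of genotype and irradiation. A cell was counted as a member where it had at least 1000 genes, at most 20% of its UMIs (unique molecular identifiers, that is, counted RNA molecules) from mitochondrial genes, Amh at 200 CPM or more (CPM being UMIs per 1000000 UMIs), at least 2 of Foxl2, Kitl, Inha and Gatm, and few transcripts of stroma and oocytes. Cells with 4 or more of the 6 division genes Top2a, Mki67, Cdk1, Ube2c, Birc5 and Cenpf, and cells with 3 or more of the 6 transitional genes Col8a1, Akr1c19, Tmem171, Ramp1, Mybpc3 and Prox1, were left out. This gave 3993 members among 14648 granulosa cells, 38274 cells that passed the filters and 40594 barcodes in all. The members numbered 888 in the non-irradiated (nonIR) wild-type (WT) library, 868 in the irradiated (IR) WT library, 1044 in the nonIR Chek2-/- library and 1193 in the IR Chek2-/- library.

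The animals were females about a week old, WT C57BL/6J or Chek2-/- (the tm1b(EUCOMM)Hmgu allele, which removes the checkpoint kinase from every cell of the body), and ovaries were taken 6 h after 0.5 Gy of total body radiation or sham treatment. Each single-cell library held the pooled ovaries of several females, so that it is 1 sample and no test between conditions was possible in cells. Values of the 4 libraries are therefore given side by side, with exact 95% limits that cover counting error only. The same 4 conditions were sequenced in bulk from whole ovaries, with 6 libraries per group and 17824920 to 32605519 counts per library, and the tests come from these libraries. The 2 genotypes differed in strain marker genes, and an effect of C57BL/6 background cannot be told apart from the loss of Chek2 in these libraries. Wdfy1, which differs between C57BL/6 substrains, was at 10.9 and 10.3 CPM in the WT members and at 31.0 and 29.5 CPM in the Chek2-/- members. In nonIR whole ovaries 4 of the 5 strain marker genes (Nnt, Ide, Wdfy1 and Entpd4) differed between genotypes by edgeR, against 3.12% of all genes higher and 2.22% lower in Chek2-/-, and the other was Fgfbp3.

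Granulosa cells surround the oocyte and nurse it through follicle growth. In a primordial follicle they are flat and quiescent. Once the follicle is activated they become cuboidal, divide and begin to secrete anti-Müllerian hormone (AMH), a TGF-beta family hormone that restrains the recruitment of further follicles. They also send Hedgehog ligands to the surrounding stroma, from which theca cells form, and make inhibins, activins and, later, oestrogen. After DNA damage the kinase CHEK2 phosphorylates p53 and TAp63, which switch on genes of cell cycle arrest and cell death.

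The members carried the transcripts of granulosa cells of growing follicles in each library. Amh, on which the cells were chosen, was at 554 CPM in the WT nonIR members, 552 CPM in WT IR, 776 CPM in Chek2-/- nonIR and 845 CPM in Chek2-/- IR. Inha, the inhibin alpha subunit, was at 1592, 1490, 2004 and 1907 CPM in the same order, and Foxl2, the transcription factor that keeps granulosa identity, at 382, 374, 381 and 363 CPM. These genes were used to choose the cells and their presence is not a finding. Dhh (desert hedgehog), which the rule did not use, was at 63.1 to 71.5 CPM in the 4 libraries. Ihh (Indian hedgehog) was at 11.0 to 34.2 CPM, and Fgfbp3, which releases fibroblast growth factors from the matrix, at 133 to 260 CPM. The limit on Amh fell inside a continuous distribution. The members nearest to it had 200.11 CPM in WT nonIR, 200.29 in WT IR, 201.83 in Chek2-/- nonIR and 200.75 in Chek2-/- IR, and the nearest cells below it 199.92, 199.29, 198.58 and 198.48 CPM. Between 200 and 250 CPM lay 98, 113, 82 and 93 members, and 130, 154, 102 and 101 further cells lay between 150 and 200 CPM. Amh rested on a single UMI in 1, 22, 5 and 0 members, in the same order.

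Members took different shares of the granulosa cells in the 4 libraries. They made up 27.1% (exact binomial limits 25.6 to 28.7%) in WT nonIR, 21.8% (20.6 to 23.1%) in WT IR, 29.2% (27.7 to 30.7%) in Chek2-/- nonIR and 31.2% (29.8 to 32.7%) in Chek2-/- IR. Against the dividing Amh-expressing cells alone, the members were 64.5%, 64.4% and 63.9% of the Amh-expressing cells in the first 3 libraries and 55.5% (53.4 to 57.7%) in Chek2-/- IR, where the dividing cells numbered 955 against 479 to 590 elsewhere. Cells with none of the 6 division genes were 20.6%, 27.9%, 21.6% and 15.2% of the members. These shares come from 1 library per condition and carry no test.

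Depth was similar across the libraries, with medians of 20016 to 22408 UMIs and 4886 to 5131 genes per member. The libraries shared 30 to 73 barcodes pairwise, and none of these was a member in both. Scrublet, a doublet caller, marked 4 to 10 members per library, and they were kept. Cells over the limit on stromal transcripts were used to gauge free RNA. Of these, 9.01 to 14.2% held an Amh UMI and 2.24 to 3.34% reached 200 CPM, at median depths of 11584 to 13554 UMIs.

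Transcripts of other cell types were found in the members at levels that were not even between libraries. The 7 macrophage markers summed to 6.37 CPM in WT nonIR, 35.1 in WT IR, 13.5 in Chek2-/- nonIR and 5.48 in Chek2-/- IR, and 85.6% of the WT IR UMIs lay in 10 cells. Mast cell transcripts (Cpa3, Cma1, Tpsb2) summed to 55.2 CPM in WT nonIR, 97.3% of them in 10 cells, and to 0.128 to 3.16 CPM elsewhere. The 5 erythroid markers summed to 654, 367, 1090 and 598 CPM, mostly in 10 cells per library. The 8 oocyte markers summed to 29.1, 12.1, 12.6 and 18.6 CPM, the 6 endothelial markers to 18.8 to 29.5, the 7 fibroblast markers to 43.3 to 49.97, the 6 perivascular markers to 33.5 to 47.8 and the 7 surface epithelial markers to 111 to 182, led by Lgals7. Theca markers summed to 6.80 to 11.2 CPM, with Insl3, which defines theca cells, at 0 UMIs in all 4 libraries. The part of these transcripts in the ratios below was not tested, except where a value without such cells is given.

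Next to dividing Amh-expressing granulosa cells (2512 cells), the members differed mainly in division. All 12 genes of G2 and mitosis that the rule did not use were lower in the members in each library, with a median ratio of 0.0306. Over all genes, the 4 member levels lay above those of the dividing cells for 18.3% and below them for 22.8%. Ccnb1, the mitotic cyclin, was at 3.71 to 5.59 CPM in members and at 145 to 198 CPM in dividing cells. Plk1, a mitotic kinase, was at 2.28 to 3.12 against 120 to 133 CPM. All 18 DNA replication genes were lower too, but less so, with a median ratio of 0.521, and Mcm2, a subunit of the replicative helicase, was at 43.2 to 69.4 CPM in members against 77.6 to 87.3 CPM. Since the 2 sets were chosen by division genes, these ratios describe the sets and were not tested.

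Several transcripts of hormone signalling lay close in members and dividing cells. Amhr2, the AMH receptor, was at 434 to 446 CPM in members and 346 to 354 CPM in dividing cells, levels that did not overlap, Inhbb, the inhibin and activin beta B subunit, at 327 to 405 against 382 to 446 CPM, and Fst, which binds and blocks activin, at 516 to 622 against 621 to 680 CPM. Of 11228 genes with at least 400 UMIs in the 2 sets, 16 were at least 2-fold higher and 358 at least 2-fold lower in members in each of the 4 libraries. Among the 16 were Tcp11l2, at 12.3 to 14.7 against 2.21 to 3.37 CPM, Mxd4, a MYC antagonist, at 73.6 to 117 against 26.3 to 34.6 CPM, Omd (osteomodulin), at 5.59 to 9.41 against 1.28 to 2.80 CPM, and Dbp, a clock output factor, at 48.0 to 51.5 against 20.7 to 23.3 CPM. Bmp4, a ligand of the bone morphogenetic protein branch, was 2.47- to 4.84-fold higher in members. Of the 6 quiescence genes, 3 had levels in the 4 member sets that all lay above those of the dividing cells (18.3% of all genes), and the list's median ratio was 1.53.

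Next to Amh-low granulosa cells outside division (5846 cells), which include the pregranulosa cells of primordial follicles, the members were lower in quiescence genes and in immediate early genes. Each of the 6 quiescence genes was lower in members in each library, with a median ratio of 0.367, as were 13 of 15 immediate early genes (0.484) and 6 of 14 heat shock, redox and metallothionein genes (0.683). Junb is on both the quiescence and the immediate early list. Btg2, an antiproliferative factor, was at 216 to 352 CPM in members and 714 to 1042 CPM in Amh-low cells, and Klf2, a Krüppel-like factor, at 140 to 219 against 645 to 891 CPM. Replication genes went the other way, 17 of 18 being higher in members with a median ratio of 2.13. By the same measure, levels of the 4 libraries that did not overlap, 19.9% of all genes were higher and 31.9% lower in members. Of 9 gonadotrophin and steroid genes 6 were higher and 1 lower, and of 7 TGF-beta family ligands and antagonists 3 were higher and 3 lower. Inhbb was at 85.1 to 124 CPM in Amh-low cells, and members were 3.02- to 4.75-fold higher. Hsd3b1, a steroid dehydrogenase, was at 723 to 777 CPM in members against 211 to 310 CPM, and Fshr, the receptor for follicle-stimulating hormone, was low in both sets, at 3.46 to 4.40 against 0.551 to 1.04 CPM.

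Both Hedgehog ligands were higher in members than in Amh-low cells. Dhh was at 63.1 to 71.5 against 22.7 to 27.6 CPM and Ihh at 11.0 to 34.2 against 4.59 to 5.4 CPM, so that the ratio was 2.38 to 3.15 for Dhh and 2.35 to 6.33 for Ihh. The highest ratios over Amh-low cells belonged to genes of low level, such as Ctrb1 (chymotrypsinogen B), at 8.75 to 15.5 against 0.514 to 2.25 CPM, Ank1, which anchors membrane proteins to spectrin, at 11.6 to 33.8 against 2.16 to 3.71 CPM, and Hamp2, a hepcidin, at 17.7 to 22.1 against 1.21 to 5.19 CPM. Foxp2, a forkhead factor, was at 14.3 to 27.4 against 3.23 to 7.53 CPM. In all, 82 of 11905 genes were at least 2-fold higher and 828 at least 2-fold lower in members in each library. Markers of some other cells were lower too, by levels that did not overlap (31.9% of all genes). All 7 surface epithelial markers (median ratio 0.0395), all 6 endothelial markers (0.0625) and all 7 macrophage markers (0.0609) were lower in members. The Amh-low set thus holds more transcripts of these 3 cell types, whose part in the other ratios was not tested. Lower were also 4 of 6 fibroblast, 3 of 5 perivascular (with 1 higher), 1 of 5 erythroid, 1 of 3 theca and 0 of 3 oocyte markers. Lef1, which carries WNT signals to the nucleus, was at 0.303 to 0.384 CPM in members and 10.5 to 12.3 CPM in Amh-low cells.

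Transitional granulosa cells (712 cells, chosen by 6 other genes) differed from the members in kit ligand, and 6 of 9 gonadotrophin and steroid genes were lower and none higher in members (30.8% and 12.3% of all genes). Kitl, which signals to the KIT receptor on the oocyte, was at 176 to 240 CPM in members and at 660 to 842 CPM in transitional cells. Hsd3b1 was at 1467 to 1606 CPM in transitional cells, above the 723 to 777 CPM of the members. Myl9, a myosin light chain of contractile cells, was at 26.2 to 42.8 against 492 to 615 CPM, and Ncam1, an adhesion molecule, at 7.72 to 13.1 against 118 to 162 CPM. Higher in members were Ank1, by 8.42- to 14.3-fold, Fgfbp3, by 3.86- to 6.33-fold, and Fetub, a fetuin that blocks the protease of the zona pellucida, by 4.08- to 7.44-fold. Of the 11 MHC class I genes, which present peptides, 7 were higher in members in that their 4 levels lay above those of the other set, as was the case for 12.3% of all genes (30.8% lay below), with a median ratio of 2.14. In all, 73 of 10500 genes were at least 2-fold higher and 253 at least 2-fold lower in each library.

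**Figure D1:**
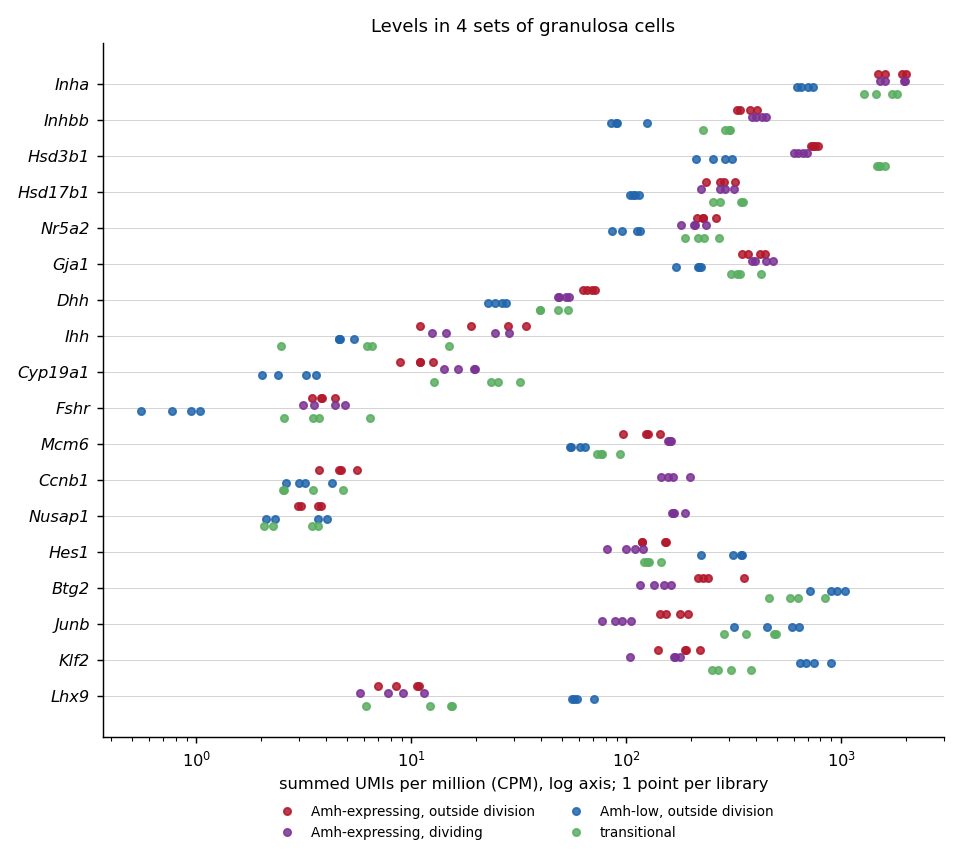
Levels of 18 genes (CPM, log axis) in members, dividing Amh-expressing cells, Amh-low cells and transitional cells, with 1 point per library and set. Members and dividing cells lie close for Inha and Inhbb, while Amh-low cells lie lower, and Hsd3b1 is highest in the transitional cells at 1467 to 1606 CPM.

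Members were not uniform among themselves. Within each library the members were ordered by Amh and divided into 3 groups of equal size, with median Amh of 272, 444 and 839 CPM in WT nonIR, 261, 439 and 868 in WT IR, 308, 612 and 1219 in Chek2-/- nonIR, and 339, 689 and 1323 in Chek2-/- IR. The upper and lower groups differed little in depth (medians of 19630 to 23069 UMIs). Of 8780 genes with enough UMIs, 223 were higher and 275 lower in the upper group in all 4 libraries, by limits that exclude a ratio of 1. This is a description of cells within a library and carries no test, and UMIs of a cell enter both Amh and the other genes.

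Higher Amh went with more Ihh, Inha and Inhbb. Ihh was at 14.7 CPM in the lower and 23.96 CPM in the upper group in WT nonIR, at 8.71 and 14.4 in WT IR, at 22.1 and 33.5 in Chek2-/- nonIR and at 21.9 and 46.4 in Chek2-/- IR, ratios of 1.52 to 2.12. Dhh differed less, with ratios of 1.07 to 1.22 and limits above 1 in 2 libraries. Inhbb was 1.16 to 1.57 times and Inha 1.17 to 1.28 times as high in the upper group, while Inhba, the beta A subunit, had ratios of 0.639 to 0.965, with limits below 1 in 1 library. Among steroid genes, Hsd3b1 was 1.29 to 1.52 times and Hsd17b1, which reduces oestrone to oestradiol, 1.10 to 1.52 times as high, while Hsd17b7 had ratios of 0.631 to 0.931. Cyp11a1 (0.305 to 2.65) and Star (0.683 to 2.46), with few UMIs, went both ways over the libraries. Gja1, the connexin of granulosa gap junctions, was 1.08 to 1.25 times as high. Ctrb1 and Hamp2, high in members over Amh-low cells, were also 2.74 to 2.98 and 2.64 to 3.11 times as high in the upper group.

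All 6 quiescence genes were lower in the upper Amh group in the 4 libraries, as were 3.13% of all genes (2.54% were higher). So were 10 of 14 measured immediate early genes, such as Fos (ratios of 0.555 to 0.793), and all 4 measured erythroid markers, such as Hba-a1 (0.0416 to 0.646), and their part in these ratios was not tested. Btg2 was at 356 CPM in the lower and 165 CPM in the upper group of WT nonIR, and its ratio was 0.461 to 0.476 in the 4 libraries. Klf2 had ratios of 0.298 to 0.489, Junb, an AP-1 subunit, 0.477 to 0.624, Cdkn1b, a CDK inhibitor, 0.574 to 0.785 and Txnip, a thioredoxin inhibitor, 0.623 to 0.763. Junb is on both the quiescence and the immediate early list, so these lists are not separate. Bmp4 had ratios of 0.0922 to 0.286, and Lhx9, a factor of the gonadal ridge, had 0.339 to 0.504. Foxl2 and Kitl stayed near 1, with ratios of 0.923 to 1.03 and 0.886 to 1.05. The mean number of the 6 division genes also differed between the groups, from 1.35 to 1.55 in WT nonIR, 1.13 to 1.34 in WT IR, 1.35 to 1.55 in Chek2-/- nonIR and 1.54 to 1.69 in Chek2-/- IR, and its part in these ratios was not tested.

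**Figure D2:**
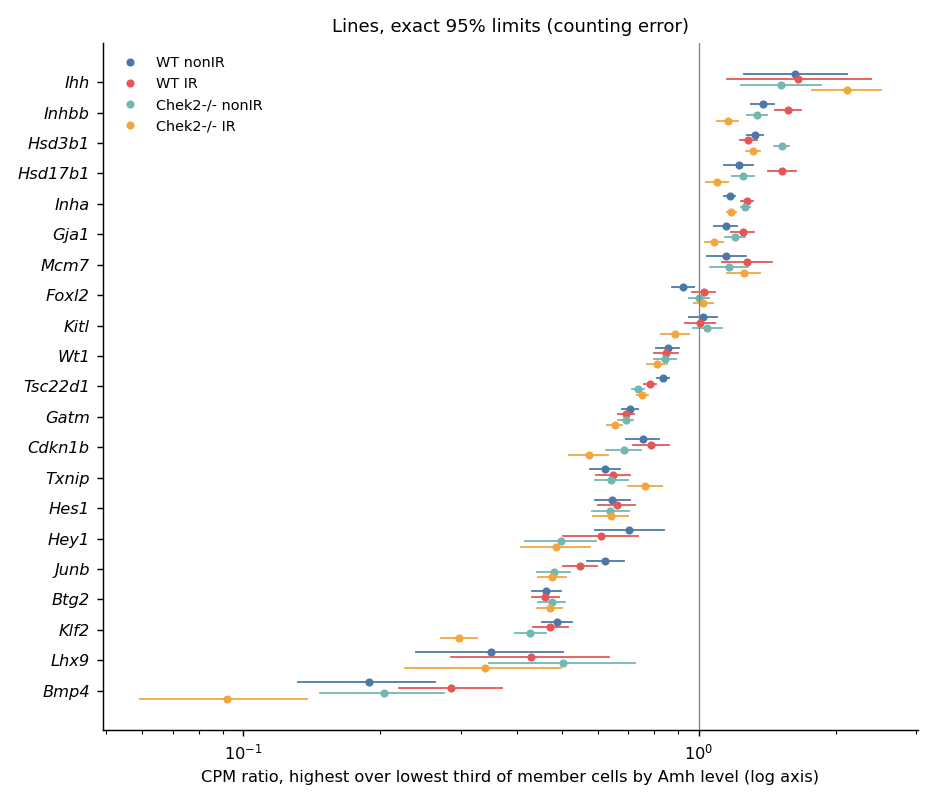
Ratio of the CPM in members of the upper Amh group over those of the lower group for 21 genes (log axis), 1 point per library with exact 95% limits of counting error. Ihh lies above 1 and Btg2, Klf2 and Bmp4 below 1 in all 4 libraries.

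Irradiated WT members differed from nonIR WT members in p53 target genes and in interferon-stimulated genes. With a ratio of at least 1.5 in either direction counted as past the fold, 199 of 11032 genes with at least 100 UMIs were higher (1.8%) and 89 were lower (0.807%), and the median ratio of all genes was 0.992. Of 15 measured p53 targets of cell cycle and feedback 10 were higher and none lower, and of 10 measured p53 targets of cell death 9 were higher. Of 18 measured interferon-stimulated genes 15 were higher. The list medians were 2.18, 2.54 and 3.18. A gene was measured by its UMIs over both libraries, so a gene near 0 without irradiation could pass only where it was higher, and 3, 3 and 6 listed genes were not measured. In each list 3 measured genes had fewer than 50 UMIs in WT nonIR, and apart from these 7 of 12, 6 of 7 and 12 of 15 were higher. Without them the list medians were 1.67, 1.92 and 2.99. With 1 library on each side these are ratios between 2 libraries, and no p is attached to them.

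Among the p53 targets of arrest and feedback, Cdkn1a, which encodes the CDK inhibitor p21, was at 1.82 CPM in WT nonIR and 74.5 CPM in WT IR, against 1.49 and 3.31 CPM in the Chek2-/- libraries. The WT ratio was 40.9 (29.4 to 58.7), and 65.5 among members with Amh at 500 CPM or more and 19.8 in cells thinned to 5000 UMIs before the rule. Ccng1 (cyclin G1) was at 13.5 and 77.7 CPM in WT and at 11.7 and 19.1 CPM in Chek2-/-, and its WT ratio was 5.78 (5.06 to 6.62). The stress-sensing Sesn2 was at 2.12 and 14.7 CPM in WT (ratio 6.90), and Psrc1, a spindle-associated protein, at 2.28 and 14.7 CPM (6.44). Phlda3, which restrains AKT, was at 29.1 and 103 CPM in WT and at 28.9 and 32.5 CPM in Chek2-/-, a WT ratio of 3.53 (3.22 to 3.89). Of the 4 libraries the WT IR members had the highest level of each of these 5 genes. Mdm2, the ligase that degrades p53, was at 37.6 and 64.8 CPM (1.72), while Sesn1 had a ratio of 0.938. The noncoding Trp53cor1 (lincRNA-p21), next to Cdkn1a in the genome, was at 0.101 and 6.79 CPM (67.1, limits 18.2 to 561).

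Shares of cells with a UMI depend on depth and free RNA and do not count the cells that responded. A Cdkn1a UMI was found in 40.9% of WT IR members and in 1.80%, 1.72% and 3.86% of WT nonIR, Chek2-/- nonIR and Chek2-/- IR members. After thinning each cell to 10000 UMIs, which left out 15 to 54 cells per library, the shares were 32.2% against 1.49%, 0.688% and 2.30%. For comparison with another cell type, 17 to 26 erythroid cells per library were used, at median depths of 15490 to 18496 UMIs. They held a UMI of the granulosa gene Inha in 40.0 to 58.8%, and of Cdkn1a in 23.5% in WT IR and in 5.88 to 10.0% elsewhere. Bax was found in 95.3% of WT IR members against 87.2 to 91.5%, and after thinning in 92.0% against 66.6 to 73.8%. Ccng1 was found in 60.4% of WT IR members against 22.1 to 32.9% and Phlda3 in 70.2% against 39.7 to 42.5%. Erythroid cells held a Phlda3 UMI in 82.4% in WT IR and in 45.0 to 53.8% elsewhere, above the members in each library, and a Ccng1 UMI in 41.2% against 7.69 to 15.0%.

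Pro-apoptotic p53 targets were higher as well. Bax, the mitochondrial effector of apoptosis, was at 109 CPM in WT nonIR, 315 in WT IR, 120 in Chek2-/- nonIR and 140 in Chek2-/- IR, a WT ratio of 2.89 (2.75 to 3.04). Bbc3 (PUMA), which activates BAX, was at 5.01 and 19.6 CPM in WT and at 4.18 and 4.19 CPM in Chek2-/-, a WT ratio of 3.91. Aen, an apoptosis nuclease, was at 20.1 and 57.9 CPM in WT (2.88), and Eda2r, a death receptor of the TNF family, at 0.455 and 11.1 CPM (24.4, limits 12.6 to 54.2, and 107 with Amh at 500 CPM or more). Pmaip1 (NOXA) and Fas had fewer than 100 UMIs in the 2 libraries and were not counted, with 0.152 and 0.856 CPM for Pmaip1 and 0.101 and 3.02 CPM for Fas. Among 7 measured repair genes 2 were higher, Polk, a translesion polymerase (2.21), and Ercc5, an excision endonuclease (1.53). Of the genes that the study describes as radiation-responsive in the ovary, Dcxr, a xylulose reductase, was at 8.95 and 50.6 CPM (5.66) and Ano3, an anoctamin, at 0.202 and 8.90 CPM (44.0). The other 7 genes of that list had fewer than 100 UMIs and were not read, and the study chose the list on these samples. Ano3 had fewer than 50 UMIs in WT nonIR and was measured through WT IR, where it was higher. The study found Dcxr induced in its oocyte cluster. It reports that granulosa cells did not express most of its ovary genes, apart from known damage response genes. The part of free oocyte RNA in the ratios of Dcxr and Ano3 was not tested.

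Promoter windows of 4 of the genes are printed, since they stand for the 2 gene groups that set irradiated WT members apart and carry a match to the motif searched. Sequences are from RefSeq on GRCm38.p6, from 250 bases before to 50 bases after the start site, 5′ to 3′ on the gene's strand. For Cdkn1a (chr17:29090729-29091028, plus strand) and Ccng1 (chr11:40755237-40755536, minus strand) capitals mark the match to the p53 consensus, with 1 mismatch in each, beginning 51 and 195 bases before the start. For Isg15 (chr4:156200769-156201068, minus strand) and Ifit1 (chr19:34640639-34640938, plus strand) capitals mark 2 copies of GAAA with any 2 bases between them, the core of the interferon-stimulated response element, found 3 times with overlap in Isg15 and 2 times in Ifit1. In Ifit1 the matches lie on the opposite strand, so that they read as pairs of TTTC in the printed window.
Cdkn1a: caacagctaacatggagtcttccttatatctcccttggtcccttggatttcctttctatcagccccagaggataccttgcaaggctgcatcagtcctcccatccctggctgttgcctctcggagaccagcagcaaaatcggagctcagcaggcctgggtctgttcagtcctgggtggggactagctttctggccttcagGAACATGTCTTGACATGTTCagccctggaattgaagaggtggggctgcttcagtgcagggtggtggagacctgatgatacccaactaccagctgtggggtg
Ccng1: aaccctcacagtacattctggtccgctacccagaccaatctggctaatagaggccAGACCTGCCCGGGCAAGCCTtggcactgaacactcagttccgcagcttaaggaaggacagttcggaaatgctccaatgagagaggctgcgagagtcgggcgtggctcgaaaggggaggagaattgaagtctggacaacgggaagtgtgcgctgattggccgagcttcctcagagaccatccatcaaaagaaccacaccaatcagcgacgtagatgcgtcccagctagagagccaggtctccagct
Isg15: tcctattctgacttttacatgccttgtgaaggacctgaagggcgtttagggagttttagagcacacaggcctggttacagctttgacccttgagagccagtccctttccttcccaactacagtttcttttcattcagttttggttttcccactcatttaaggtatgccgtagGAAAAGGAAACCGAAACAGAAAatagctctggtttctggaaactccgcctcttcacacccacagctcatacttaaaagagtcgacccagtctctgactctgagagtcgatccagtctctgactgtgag
Ifit1: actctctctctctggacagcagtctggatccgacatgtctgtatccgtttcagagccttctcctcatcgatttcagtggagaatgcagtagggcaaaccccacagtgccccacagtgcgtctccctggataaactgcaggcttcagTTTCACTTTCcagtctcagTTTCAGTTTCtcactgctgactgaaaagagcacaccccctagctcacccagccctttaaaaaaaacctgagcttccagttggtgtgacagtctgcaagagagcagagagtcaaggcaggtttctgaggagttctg
Both strands were searched. A p53 match with at most 1 mismatch was found in 22 of 32851 windows (0.067%) and the GAAA pair in 1131 (3.44%). Of the 31 p53 targets of arrest and death 24 had a counted window, and 3 of these genes had such a match. Of the 24 interferon-stimulated genes 19 had a counted window and 14 had the GAAA pair. Windows on 1 chromosome were left out of these list counts but kept among the 32851. A match describes letters in the window only.

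Interferon-stimulated genes formed the other group. Isg15, a ubiquitin-like modifier, was at 1.37 CPM in WT nonIR, 24.2 in WT IR, 1.71 in Chek2-/- nonIR and 0.882 in Chek2-/- IR, a WT ratio of 17.8 (12.03 to 27.3). Ifit1, which binds foreign RNA, rested on 3 UMIs in WT nonIR and 233 in WT IR, at 0.152 and 13.3 CPM (87.6, limits 29.6 to 428). It had 0 UMIs in the 1044 members of Chek2-/- nonIR, where a floor of 3 counts is 0.128 CPM, and 0.0368 CPM in Chek2-/- IR. Rtp4 was at 5.82 and 49.9 CPM in WT and at 5.29 and 5.07 CPM in Chek2-/-, a WT ratio of 8.58 (7.06 to 10.5). Irf7, an interferon regulatory factor, was at 3.94 and 16.8 CPM (4.25), and Ifitm3, which blocks viral entry, at 14.4 and 59.7 CPM (4.14). Tap1, a peptide transporter, was the MHC class I gene past the fold among 11, at 18.3 and 31.4 CPM (1.71).

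Shares of members with a UMI differed between genes of this group. Isg15 was found in 17.1% of WT IR members (10.2% after thinning) and in 1.76 to 2.59% elsewhere, and Ifit1 in 10.5% (6.76% after thinning) against 0 to 0.338%, where 0 of 1044 cells allows up to 0.353% of cells with a UMI by the exact binomial limit, which is no limit on cells that express the gene. Erythroid cells held an Isg15 UMI in 35.0% in WT nonIR, 23.5% in WT IR, 17.6% in Chek2-/- nonIR and 34.6% in Chek2-/- IR, so that by share alone the members did not exceed them. Ifitm3 was found in 49.1% of WT IR members against 23.5 to 25.3%, and in 75 to 80.8% of erythroid cells. Macrophage markers moved with this group, as given above. Without the members that held markers of other cells, the Isg15 ratio was 19.1 and the Ifit1 ratio 80.8. The ratio of Lyz2, a macrophage marker, went from 8.46 to 0.976, but Lyz2 was among the markers by which cells were removed. For macrophages, only members with at least 3 of the 7 markers were removed, 4 of them in WT IR. The part of members with fewer such markers in the interferon ratios was not tested.

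**Figure D3:**
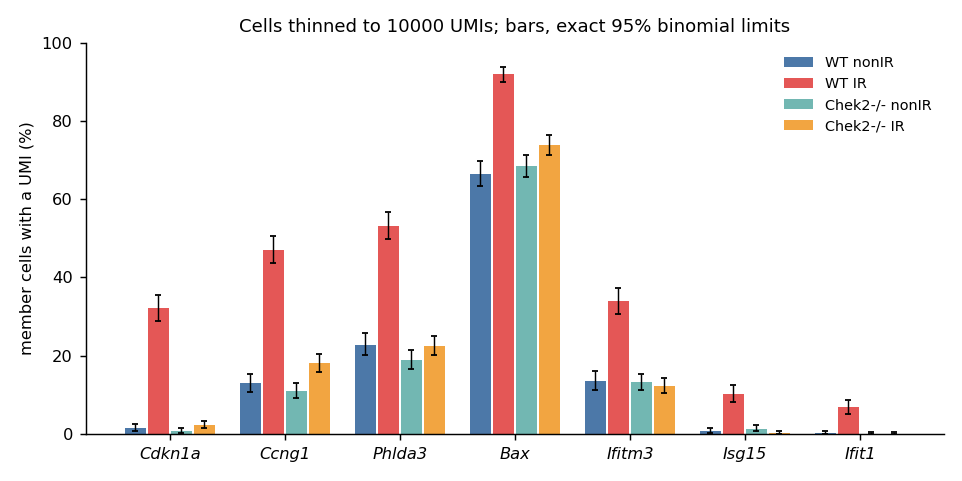
Share of members with at least 1 UMI of the gene (percent), in cells thinned to 10000 UMIs, by library, with exact binomial 95% limits as whiskers. Cdkn1a is found in 32.2% of WT IR members and in 0.688 to 2.30% of the others, Isg15 in 10.2% and in 0.341 to 1.28%.

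Genes of follicle function, like most genes, were mostly within the fold between irradiated and nonIR WT members, and Ihh, Bmp2 and Notch1 were past it. Ihh was at 19.02 CPM in WT nonIR and 11.0 in WT IR, against 28.2 and 34.2 CPM in Chek2-/-, a WT ratio of 0.576 (0.481 to 0.687) that ranged from 0.569 to 0.648 over the alternatives. Bmp2 was at 2.07 and 5.93 CPM (2.86, limits 1.98 to 4.21, with alternatives from 1.78 to 3.79), and Bmp4 was at 18.8 and 27.9 CPM (1.49). With fewer than 50 UMIs in WT nonIR, Bmp2 was measured through WT IR, where it was higher. None of the other 7 measured ligands and antagonists of the TGF-beta family was past the fold. Notch1, a receptor for oocyte ligands, was at 9.10 and 14.9 CPM (1.64, limits 1.35 to 2.00). Amhr2 (1.01), Dhh (1.05) and Hsd3b1 (1.07) stayed within 10% of 1, as did Amh (0.996), Foxl2 (0.978) and Kitl (1.06). Amh, Foxl2 and Kitl were used by the rule, so their ratios among members do not show whether granulosa cells at large changed. Over all granulosa cells the median Amh was 171.5 CPM in WT nonIR and 102.7 CPM in WT IR, and 188 and 357 CPM in Chek2-/-. Amh-low cells outside division were 40.4% and 48.1% of granulosa cells in WT and 41.5% and 29.5% in Chek2-/-. Their part in these medians was not tested. In whole WT ovaries Amh had a log2 change of -0.096 on irradiation (adjusted p = 0.97 by edgeR). None of 11 transcription factors, 14 receptors and effectors of the TGF-beta family and 8 gonadotrophin and steroid genes was past the fold. Of all genes only 1.8% were higher and 0.807% lower past it, so these counts do not set the lists apart from other genes.

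None of the 18 replication genes was past the fold in irradiated WT members. Limits lay below 1 for 13 of them and above 1 for 1, against 14.1% and 13.7% of all genes, and the median ratio was 0.847. Mcm2 was at 56.3 and 43.2 CPM (0.767, limits 0.699 to 0.842), Mcm6 at 123 and 96.6 CPM (0.785), Cdt1, which loads the helicase, at 30.5 and 22.02 CPM (0.722) and Uhrf1, which maintains DNA methylation, at 31.1 and 23.96 CPM (0.770). In Chek2-/- members the same genes were at 61.4 and 69.4, 127 and 144, 30.1 and 34.9, and 32.97 and 38.4 CPM. Among the 6 quiescence genes Btg2, itself a p53 target, was at 239 and 352 CPM (1.47) and Junb at 144 and 195 CPM (1.35), whereas Klf2 (0.864) and Txnip (0.924) had limits below 1. None of the 6 was past the fold, and the list median was 1.04. All 17 cholesterol genes had ratios over 1, as did 47.3% of all genes, with a median of 1.29, and 3 were past the fold, among them Insig1, a sterol sensor (18.1 and 27.5 CPM, 1.52), and Stard4, a sterol carrier (3.29 and 5.42 CPM, 1.65). Hmox1 (haem oxygenase) was at 43.1 and 70.0 CPM (1.63).

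The lowest WT ratios belonged to transcripts of other cells. Cpa3 (0.00446), Cma1 (0.0188), Tpsb2 (0.0251) and Srgn (0.292) are mast cell or leukocyte genes, Nlrp5 (0.227), Sycp3 (0.269), Gtsf1 (0.269), Gdf9 (0.330) and Dppa3 (0.345) are oocyte genes, and Hbb-bt (0.350) is a haemoglobin gene. Over all other cells of the 2 libraries the ratios of these 10 genes were also below 1, from 0.384 to 0.776. Gtsf1 and Dppa3 were among the oocyte genes whose share the rule limited, so their levels in members were held down by the choice of cells. The highest ratios, besides genes given above, were those of Fam212b (30.9), Usp18, which dampens interferon signals (29.97), Pqlc3 (11.6) and Dglucy, a D-glutamate cyclase (10.9).

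**Figure D4:**
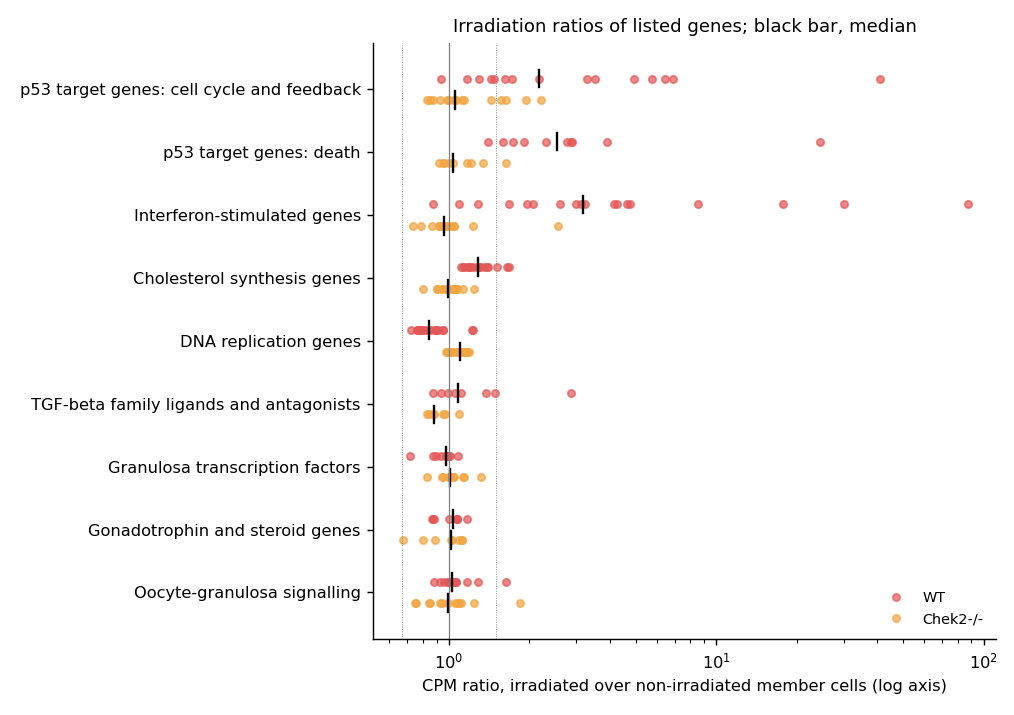
Ratio of IR over nonIR CPM for each gene of 9 lists in WT (red) and Chek2-/- (orange) members, on a log axis, with a black bar at the list median and dotted lines at 1.5 and its inverse. The p53 and interferon lists lie mostly above 1 in WT, with medians of 2.18, 2.54 and 3.18. Without genes under 50 UMIs in WT nonIR these are 1.67, 1.92 and 2.99. In Chek2-/- the medians are 1.06, 1.04 and 0.958, with single ratios up to 2.56.

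In Chek2-/- members irradiation left most of these genes near their nonIR level. Of 11445 genes 93 were higher (0.813%) and 87 lower (0.76%), and the median of all genes was 1.01. Of 16 measured p53 targets of cell cycle and feedback 4 were past the fold, Cdkn1a (1.49 and 3.31 CPM, ratio 2.21, limits 1.48 to 3.37), Pvt1, a noncoding RNA (2.99 and 5.81 CPM, 1.94), Ccng1 (1.64, limits 1.41 to 1.91) and Sesn2 (2.78 and 4.34 CPM, 1.56). Cdkn1a was within the fold with Amh at 500 CPM or more (1.43), and Sesn2 with Amh at 100 CPM or more (1.38). Of 9 measured death genes 1 was, Perp, a junction protein (2.73 and 4.48 CPM, 1.64). Bax (1.17), Phlda3 (1.13), Aen (1.22), Bbc3 (1.00) and Mdm2 (0.985) were not. The list medians were 1.06 and 1.04. Of 15 measured interferon-stimulated genes 1 was past the fold, the chemokine Cxcl10, at 6.15 and 15.7 CPM (2.56), and the median was 0.958. Cxcl1, another chemokine, was at 2.26 and 8.89 CPM (3.93) and, in WT, at 2.17 and 6.67 CPM (3.07), so that these chemokines were higher in the IR library of both genotypes. In the replicated whole ovaries neither was called. The log2 changes there were -0.04 in WT and -0.58 in Chek2-/- for Cxcl1, and -0.32 and 0.97 for Cxcl10. On leaving out single libraries, the Chek2-/- change of Cxcl10 ran from -0.36 to 1.19.

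Eppin, Cbs, Ass1 and Cldn5 were also among the highest ratios in Chek2-/- members. Eppin, a protease inhibitor, was at 8.58 and 19.1 CPM, from 201 and 521 UMIs (2.23, limits 1.89 to 2.64), Cbs, of sulphur amino acid metabolism, at 2.13 and 6.28 CPM (2.94), and Ass1, of arginine synthesis, at 2.48 and 5.66 CPM (2.29). Cldn5, an endothelial claudin, had a ratio of 3.79, and 1.04 without members that held markers of other cells. Hspa1a and Hspa1b, heat shock proteins, were at 85.7 and 43.2 CPM (0.505) and at 41.0 and 21.6 CPM (0.529). The erythroid and perivascular transcripts Hbb-bt (0.148) and Rgs5 (0.169) had the lowest ratios. Gja4, the connexin of the oocyte side, was at 2.09 and 3.86 CPM (1.84, limits 1.3 to 2.64). It was within the fold without doublets (1.42) and without members that held markers of other cells (1.44). Ccnd1 (cyclin D1) went in opposite directions in the 2 genotypes, at 4.25 and 7.02 CPM in WT (1.65) and 3.37 and 2.02 CPM in Chek2-/- (0.599). Neither was firm. The WT ratio was 1.35 without members that held markers of other cells, and the Chek2-/- ratio was 0.710 without doublets, 0.855 with Amh at 100 CPM, 0.767 as a mean of cells and 1.16 after thinning to 5000 UMIs.

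Between nonIR genotypes few genes were past the fold. Of 11208 genes 107 were higher (0.955%) and 148 lower (1.32%), with a median of 0.991. Chek2 itself was at 7.99 CPM in WT and 3.25 CPM in Chek2-/- members (0.406, limits 0.305 to 0.537), so that part of its RNA was still counted. Amh had a ratio of 1.4, Inha of 1.26, Ihh of 1.48 and Fgfbp3 of 1.66, whereas Kitl had 0.827. Amh, Inha and Kitl were used by the rule, none of the 3 was past the fold, and Fgfbp3 is on the list of strain marker genes. Hspa1b (5.95), Hspa1a (5.31), Hist1h1d, a linker histone (3.74), Cspg5, a proteoglycan (2.997), and Wdfy1 (2.83) had the highest ratios, but of the 14 heat shock, redox and metallothionein genes only Hspa1a and Hspa1b were past the fold, with a list median of 1.14. Cpa3, Tpsb2 and Cma1 of mast cells had the lowest ratios. Gm15446 had 0.113, and Nlrp14, an oocyte gene, 0.220. The lists of p53 targets (median 0.992 for arrest and 0.936 for death), interferon-stimulated genes (0.972) and replication genes (1.06) lay near the median of all genes, though 2 of 15 interferon-stimulated genes, Gbp2 (0.611) and Irf7 (0.660), were lower and 1 of 9 death targets, Pidd1 (1.60), was higher past the fold. Irf7 was within the fold without doublets (0.671), with Amh at 100 CPM or more (0.672) and as a mean of cells (0.681). The quiescence genes had a median of 0.851 with none past the fold.

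Among irradiated members the genotypes lay further apart. Of 11294 genes 277 were higher (2.45%) and 468 lower (4.14%) in Chek2-/- members, with a median of 1.00. This comparison shares the IR libraries with the comparisons above. Of 16 p53 targets of cell cycle and feedback 11 were lower, of 10 death targets 9, and of 19 interferon-stimulated genes 15, with medians of 0.541, 0.500 and 0.299. Here too a gene was measured by its UMIs over both libraries. A gene near 0 in Chek2-/- IR could therefore pass only where WT IR was higher, and no count without such genes was made. Cdkn1a had a ratio of 0.0444, Bax of 0.444 and Isg15 of 0.0364. Of 18 replication genes 5 were higher and none lower, with a median of 1.41, and all 18 ratios lay over 1, as did 51.4% of all genes. Mcm2 (43.2 and 69.4 CPM, 1.60), Mcm3 (63.4 and 99.01 CPM, 1.56) and Uhrf1 (23.96 and 38.4 CPM, 1.60) were among the 5. Ihh was at 11.0 and 34.2 CPM (3.12, limits 2.67 to 3.67), and Nr0b1, a nuclear receptor that curbs steroid genes, at 7.53 and 16.6 CPM (2.2). Of the quiescence genes 3 were lower, Cdkn1b (159 and 97.1 CPM, 0.610), Txnip (189 and 116 CPM, 0.616) and Btg2 (0.644). Btg2 was within the fold with Amh at 500 CPM or more (0.780). Eya2 (4.71), Hist1h1d (4.10), Eppin (4.04), Car14, a carbonic anhydrase (3.8), and Slc38a5, an amino acid transporter (3.58), had the highest ratios. Pf4 (0.0373) and C1qb (0.0394), of the lowest, are transcripts of macrophages.

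Whole ovaries gave replicates for these genes, though they mix all cell types, and fewer cells of a type and less RNA per cell cannot be told apart in them. In irradiated WT ovaries 409 of 26790 genes rose (1.53%) and 237 fell (0.885%) by edgeR's quasi-likelihood test, with a Benjamini-Hochberg adjusted p up to 0.05. Of 18 p53 targets of cell cycle and feedback 13 rose and of 13 death targets 9 rose, while of 24 interferon-stimulated genes and 18 replication genes none did. Unadjusted p-values were below 0.05 for 4 and 7 of these, against 11.4% of all genes, and the interferon list had a median log2 difference of 0.56. In irradiated Chek2-/- ovaries the list's median was 0.42, with none called. The median difference between genotypes in this response was 0.05, with none called. Chek2-/- IR replicate 6 was high in Isg15 (28.2 CPM, next library 4.49), Ifit1 (35.9, next 3.13) and Rtp4 (14.1, next 4.40). The part of this library in the medians of 0.42 and 0.05 was not tested. WT nonIR replicate 5, which was high in interferon-stimulated genes, bears on this list. Without it the log2 difference of Rtp4 went from 1.27 (adjusted p = 0.081 by edgeR) to 1.77 (adjusted p = 0.0038 by edgeR), that of Isg15 from 1.21 to 1.99 (adjusted p = 0.12 by edgeR) and that of Ifit1 from 1.16 to 3.02 (adjusted p = 0.060 by edgeR). Rtp4 also passed without Chek2-/- IR replicate 6 (adjusted p = 0.010 by edgeR), with the replicate block (0.024) and by DESeq2 (0.018). In irradiated Chek2-/- ovaries 3 genes rose (0.0112%), Ccng1, Eda2r and Ano3, and 0 fell (0%), where DESeq2 called 14 in all. An unadjusted p below 0.05 by edgeR was found there for 1179 of 26790 genes, against 3059 in irradiated WT ovaries.

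Phlda3 and Bax differed in their response between genotypes. For Phlda3 the lowest, median and highest library values were 23.7, 28.6 and 31.2 CPM in WT nonIR ovaries, 59.6, 65.7 and 68.9 CPM in WT IR, 23.8, 26.1 and 32.5 CPM in Chek2-/- nonIR and 29.7, 33.6 and 38.3 CPM in Chek2-/- IR. The WT groups did not overlap. The change was 1.21 ± 0.08 (log2, SE, n = 6 per group, adjusted p = 7.8e-11 by edgeR) in WT and 0.35 ± 0.08 (adjusted p = 0.41 by edgeR, 0.024 to 0.85 over its alternatives) in Chek2-/-, and the difference between them was 0.85 ± 0.11 (adjusted p = 3.7e-05 by edgeR). Bax was at 45.5, 49.1 and 58.2 CPM in WT nonIR and 67.1, 79.1 and 83.9 CPM in WT IR ovaries, again without overlap, and at 47.9 to 53.3 and 50.8 to 57.3 CPM in the Chek2-/- groups. It rose by 0.60 ± 0.06 in WT (adjusted p = 2.4e-07 by edgeR), with a difference between genotypes of 0.48 (adjusted p = 0.0022 by edgeR). Over all genes the difference between genotypes was called for 186 genes in the positive (0.694%) and 91 in the negative direction (0.34%), among them 11 of 18 and 9 of 13 p53 targets of the 2 lists.

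Members and whole ovaries did not move alike for every gene. Aen, with a ratio of 2.88 in members, was at 125, 138 and 147 CPM in WT nonIR and 128, 141 and 152 CPM in WT IR ovaries (0.02 ± 0.06, adjusted p = 0.98 by edgeR). Ihh, at 0.576 in members, was at 13.3, 17.9 and 21.5 against 12.3, 17.9 and 20.8 CPM in ovaries (-0.04 ± 0.29, adjusted p = 1 by edgeR). Isg15 was at 1.49, 2.55 and 12 CPM in WT nonIR and 4.74, 8.80 and 15.4 CPM in WT IR ovaries, groups that overlap, with a change of 1.21 ± 0.61 (adjusted p = 0.48 by edgeR). Mcm2 had a log2 difference of -0.15 ± 0.05 (adjusted p = 0.20 by edgeR). Btg2 rose, at 26.0, 30.8 and 35.5 CPM in WT nonIR and 51.3, 61.9 and 77.1 CPM in WT IR ovaries (1.02 ± 0.14, adjusted p = 4e-05 by edgeR). Jag1, a Notch ligand made by oocytes, fell, from 81.6 to 88.8 CPM in WT nonIR to 56.9 to 74.7 CPM in WT IR (-0.41 ± 0.09, adjusted p = 0.0079 by edgeR), and in members it was at 5.36 and 4.73 CPM.

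Without irradiation 836 genes were higher (3.12%) and 594 lower (2.22%) in Chek2-/- ovaries. The 1430 calls were not stable, at 573 to 1800 on leaving out single libraries and 2423 by DESeq2. Chek2 fell to 2.88 to 4.44 CPM from 19.8 to 24.6 CPM (-2.58 ± 0.10, adjusted p = 7.5e-15 by edgeR). Amh, higher in Chek2-/- members, was at 153, 178 and 245 CPM in WT and 31.2, 149 and 173 CPM in Chek2-/- ovaries (-0.49 ± 0.34, adjusted p = 0.44 by edgeR), the lowest value being that of replicate 6. Inha was at 440, 511 and 631 against 244, 431 and 514 CPM (-0.34 ± 0.16, adjusted p = 0.20 by edgeR). Kitl, lower in Chek2-/- members, was higher in Chek2-/- ovaries, at 116, 125 and 152 CPM against 158, 171 and 268 CPM (0.51 ± 0.14, adjusted p = 0.039 by edgeR), groups that did not overlap, but the edgeR adjusted p was 0.061 to 0.091 without any 1 of WT nonIR replicates 1 to 4 and Chek2-/- nonIR replicates 1 and 6, and 0.0014 to 0.091 over its alternatives. Hspa1a, 5.31-fold higher in Chek2-/- members, had a change of 0.73 ± 0.54 in ovaries (adjusted p = 0.48 by edgeR).

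**Figure D5:**
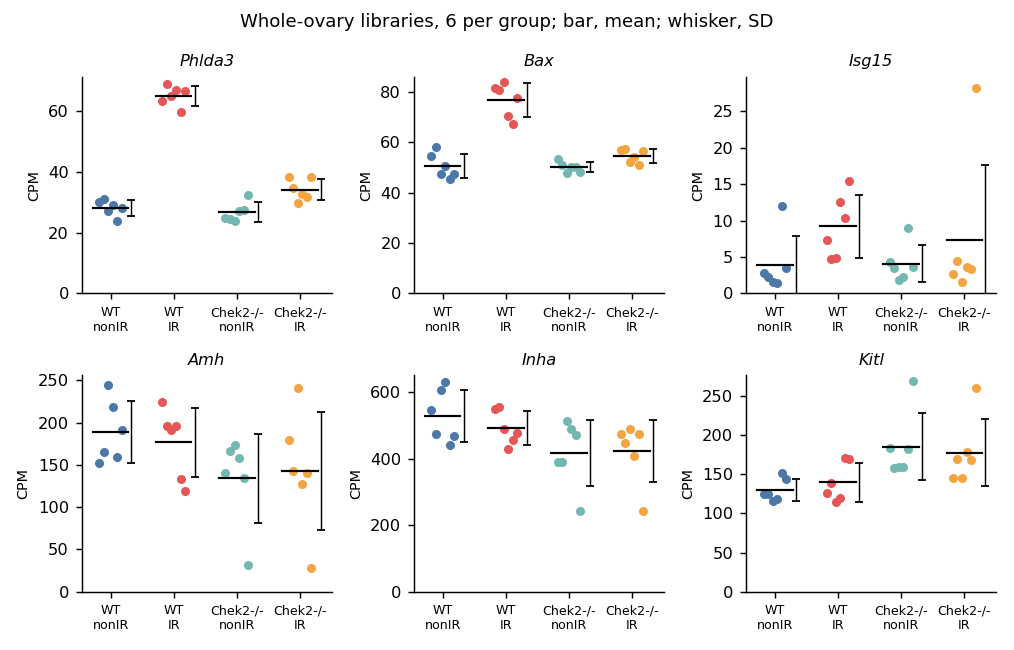
CPM of Phlda3, Bax, Isg15, Amh, Inha and Kitl in whole ovaries, 6 libraries (points) in each of the 4 groups, with the mean as a bar and the SD as whiskers. Phlda3 and Bax are higher in WT IR than in any WT nonIR library, and 1 library in each Chek2-/- group lies far below the rest for Amh.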

How the data were processed

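The series holds 28 samples, 24 bulk libraries (6 per group) and 4 single-cell libraries, grouped by their GEO labels. For single cells the authors deposited whole UMI counts per gene and barcode made with Cell Ranger on mm10 (31053 genes). For bulk ovaries the authors deposited estimated counts per gene made with Salmon 1.3.0 after Trim Galore 0.6.5, per the submitters' processing notes. No file was scaled between libraries. For the bulk libraries those notes list mm10, whereas the methods name only Ensembl transcripts as the Salmon reference, and no coordinates were taken from these counts.

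Members were picked by the rule given above. UMIs were summed per set and library, CPM is per 1000000 UMIs of the set, and ratios carry conditional exact (Clopper-Pearson) 95% limits, which cover counting error only. A floor is 3 counts, 0.110 to 0.171 CPM. Ratios were read for genes with at least 100 UMIs over both libraries. Bulk counts were rounded, and 26790 genes with at least 10 counts over the 24 libraries were normalized by TMM and fitted with 1 coefficient per group by edgeR 4.0.16 (R 4.3.3), its quasi-likelihood test and Benjamini-Hochberg adjustment over all genes. A log2 change is that fit's. DESeq2 1.42.0 was an alternative. Scrublet was run from scanpy 1.11.5 in Python 3.11.15. The steps were tested on simulated data. Per the study's methods each bulk library came from paired ovaries, and nothing in the labels says whether the replicates shared a litter, so p-values measure the spread between these samples, part of which may be technical.

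Genes named were those of 31 lists, the 10 highest and 10 lowest ratios of each irradiation comparison, the 5 highest and 5 lowest of each genotype comparison, the highest against each neighbouring set, and the genes of the rule. Jag1, Aen and others singled out from these lists were chosen after their values were seen. Some listed genes are not reported here. The members and lists were chosen with earlier results of these data known. Outliers and alternatives were followed for 42 genes in bulk and 46 in members, chosen after their values were seen.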

Additional observations from a re-analysis of the deposited data

Results flagged for a closer look

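Single bulk libraries stood far from the other 5 of their group, by Dixon's test at the 95% level, which chance passes in about 5% of groups. Replicate 6 of the Chek2-/- groups stood apart most often. In Chek2-/- nonIR it had 31.2 CPM of Amh, 268 CPM of Kitl, 209 CPM of the cholesterol gene Hmgcs1 and 6.65 CPM of Dglucy. In Chek2-/- IR it had 242 CPM of Inha and 3.22 CPM of Fgfbp3, the lowest of the group, and 189 CPM of Gatm and 260 CPM of Kitl, the highest. It also had 28.2 CPM of Isg15, 35.9 CPM of Ifit1, 14.1 CPM of Rtp4, 125 CPM of Cxcl10 and 25.3 CPM of Cxcl1.

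Interferon-stimulated genes were also high in replicate 5 of WT nonIR, with 12 CPM of Isg15, 21.8 CPM of Ifit1, 8.58 CPM of Rtp4 and 44.5 CPM of Cxcl10. Replicate 5 of Chek2-/- nonIR had 8.95 CPM of Isg15, and replicate 6 of WT IR had 21.8 CPM of Cxcl10. Replicate 2 of Chek2-/- nonIR had 48.0 CPM of Cxcl1 and 111 CPM of Junb. Further values apart from their groups were 143 CPM of Aen in Chek2-/- IR replicate 3, 51.0 CPM of Zmat3 in replicate 1 and 5.43 CPM of Pqlc3 in replicate 2 of the same group, and 0.665 CPM of Trp53cor1 in Chek2-/- nonIR replicate 4.

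The response to irradiation differed between genotypes in whole ovaries for 12 of the 42 genes followed, by the interaction term in edgeR, each with the larger response in WT. Over all genes 0.694% were called in this direction and 0.34% in the other. The genes followed were chosen after their values were seen, so this count is no measure of the response at large. The differences (log2) were 1.36 for Cdkn1a, 1.18 for Sesn2, 0.85 for Phlda3, 0.78 for Zmat3, 1.13 for Btg2, 0.48 for Bax, 0.64 for Polk, 2.91 for Dglucy, 1.43 for Fam212b, 2.53 for Trp53cor1, 0.99 for Pqlc3 and 1.04 for Gria3, a glutamate receptor subunit. The call of Pqlc3 was lost on leaving out any 1 of WT nonIR replicates 3, 4, 5 and 6, WT IR replicates 1 and 3, Chek2-/- nonIR replicates 1 and 5 and Chek2-/- IR replicates 1, 4 and 5 (adjusted p of 0.050 to 0.059 by edgeR). That of Trp53cor1 was lost on leaving out any 1 of WT nonIR replicates 1, 2, 3 and 5, WT IR replicates 1 and 2, Chek2-/- nonIR replicate 4 and Chek2-/- IR replicate 5 (adjusted p of 0.052 to 0.096 by edgeR). In members, the Ccnd1 ratio of IR over nonIR was 1.65 in WT and 0.599 in Chek2-/-, and this difference was not tested, since each condition had 1 library.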

How the results depend on the processing

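Genes past the fold in members numbered 784, 634, 758 and 1395 (WT IR, Chek2-/- IR, and Chek2-/- over WT without and with IR) at a minimum of 30 UMIs, and 104, 28, 54 and 168 at 2-fold. Thinning to 5000 UMIs before the rule gave 119 for Chek2-/- IR and 161 for nonIR genotypes. The share of higher genes in WT IR was 69.1%, against 56.3% with Amh at 500 CPM or more and 58.0% thinned, and that in Chek2-/- IR 51.7%, against 71.4% at 2-fold. Members (WT nonIR, WT IR, Chek2-/- nonIR, Chek2-/- IR) were 36.0, 31.0, 35.7 and 37.0% of granulosa cells with Amh at 100 CPM, 11.5, 9.13, 17.96 and 20.5% at 500 CPM, and 44.0, 38.7, 45.3 and 50.2% thinned. Among the genes followed, ratios past the fold that changed direction were those of Ccnd1 in Chek2-/- IR (1.16 thinned), Cldn5 between irradiated genotypes (0.857 with Amh at 100 CPM, 0.642 without doublets, 0.643 without cells holding other cells' markers, 0.691 thinned), Krt19 in Chek2-/- IR (1.32 thinned) and between nonIR genotypes (1.14 with Amh at 500 CPM and 1.14 thinned), and Lyz2 without cells holding other cells' markers (0.976 in WT IR, 1.02 between irradiated genotypes). This last alternative was chosen after seeing the data, and it removes the cells that carry Lyz2 and Cldn5. The cause of the other changes was not tested. Over single genes 5831 alternative values counted as the same, 148 moved, 25 gained and 34 lost a bulk call, and 10 changed direction. In members, a ratio counted as the same inside the main counting limits, even where it was no longer past the fold, and as moved outside them. In bulk, a value counted as the same where its call was unchanged, whatever the direction of an uncalled change. Changes of direction were counted only for ratios past the fold and for bulk calls.

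Bulk calls at a minimum fold of 2 were 288 (WT IR), 1 (Chek2-/- IR), 167 (interaction) and 211 (nonIR genotypes), and DESeq2 gave 14 for Chek2-/- IR, 458 for the interaction and 2423 for nonIR genotypes. Leaving out each replicate in turn gave 516 to 829, 2 to 5, 221 to 323 and 573 to 1800 calls. The 5 came without WT IR replicate 6, and the lowest counts between nonIR genotypes, where 1430 were called, without WT nonIR replicates 2 (675), 3 (716) and 4 (573) and Chek2-/- nonIR replicate 1 (807). Libraries with the same replicate number had correlations of deviations of -0.10 to 0.42, with 6 of 36 over 0.1, of which 4 were among the 6 pairs of Chek2-/- nonIR and IR and 2 among the 6 of WT nonIR and IR. In the Chek2-/- pairs 7 of 12 libraries correlated best with their own number, and in the WT pairs 5 of 12. As no set of pairs was over 0.1 throughout, the numbers were not taken as pairs. With the replicate block there were 661, 4, 281 and 2025 calls. Depth limits genes under 100 UMIs in members, such as Fas and Pmaip1, which were not read.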
